A study of Mus musculus with 3 samples.

Results

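The genes described here are 8 cytokines by which stromal and vascular cells keep other cells alive, *Il7*, *Il15*, *Tslp*, *Il33*, *Csf1*, *Il34*, *Kitl* and *Il6*. They were taken by gene symbol from the gene lists of the libraries, as 8 of 31053 genes common to all 3 libraries. In build mm10 *Il7* lies at chr3:7569994-7613760, *Il33* at chr19:29925114-29960718, *Il34* at chr8:110741829-110805924, *Csf1* at chr3:107741048-107760469, *Il15* at chr8:82331632-82403222, *Il6* at chr5:30013114-30019981 and *Kitl* at chr10:100015630-100100416 (gene spans of GENCODE vM21), and *Tslp* on chromosome 18. All 8 were detected, with 696 UMIs (*Tslp*) to 6304 UMIs (*Kitl*) over the cells used. The measurements came from droplet-based 3′ single-cell RNA-seq of sorted cells from mouse Peyer's patches (PP), the lymphoid organs of the small intestinal wall. The control library was labelled WT (strain C57BL/6). Both EC-iCOUPOE libraries came from CDH5(PAC)CreERT2;COUP-TFIIOE/OE mice, in which tamoxifen switches on extra copies of *Nr2f2*, the gene of the venous transcription factor COUP-TFII, in cells that use the *Cdh5* promoter. Mice of all libraries were 6-10 weeks old, had received tamoxifen 14-19 days earlier, and males and females were pooled. The number of mice and the day of isolation of each library are not given in the sources used here.

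These cytokines act on neighbouring cells. IL-7 and IL-15 sustain lymphocytes, CSF1 and IL-34 share a receptor on macrophages, KIT ligand sustains mast cells and KIT-expressing progenitors, TSLP and IL-33 act on innate lymphoid cells, mast cells and dendritic cells, and IL-6 acts on many cell types through gp130. In lymphoid organs such factors are known chiefly as products of fibroblastic reticular cells and lymphatic endothelium, and IL-7 from these sources is a textbook survival signal for naive T cells. A transcript level says which cells hold the mRNA and not how much protein they release.

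The cells used were 5341 from the control library, 4704 from EC-iCOUPOE replicate 1 and 1239 from EC-iCOUPOE replicate 2, out of libraries of 17341398, 17417260 and 3548983 UMIs. The labels call all of them blood endothelial cells, but marker genes placed only part of each library there. Blood endothelium (*Flt1*, *Plvap*, *Emcn*, *Cdh5*) held 2455, 3356 and 975 cells in the order control, replicate 1 and replicate 2. Fibroblasts (*Pdgfra*, *Col1a1*, *Dcn*) held 2452 control cells but only 7 and 4 EC-iCOUPOE cells. Lymphatic endothelium (*Prox1*, *Lyve1*, *Mmrn1*) held 826 and 111 EC-iCOUPOE cells and no control cell, enteric glia (*Sox10*) held 190 control cells, and mural cells (*Rgs5*, *Notch3*, *Acta2*, *Myh11*) held 75, 112 and 88 cells. Fibroblasts and lymphatic endothelium were thus never measured in the same library, and the genotype of the mice and the composition of the sort cannot be told apart for them. The control library and replicate 2 shared 12 barcodes, and none was shared with replicate 1.

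Levels are given in CPM, that is UMIs of a gene per 1000000 UMIs summed over the cells of one type in one library, with a 95% exact Poisson interval in parentheses. These intervals cover counting error only. With 1 control library there is no spread between control mice, and with 1 fibroblast sum there is none between fibroblast samples. Types were compared with edgeR's quasi-likelihood test on 9 sums of cells (1 per type and library) with the library as a block, in which the lone fibroblast sum is assumed to vary like the other types. Fibroblasts and lymphatic endothelium share no library, so their contrast runs through the blood endothelium and mural cells of each library. Adjusted p-values are Benjamini-Hochberg values over 12520 genes, called under 0.05. The 8 cytokines had no part in the clustering of the cells and were not among the markers used for naming. They could stand among the leading genes that the naming rule read, as *Il6* did in a fibroblast cluster led by *Igkc* and *Chodl*.

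**Figure D1:**
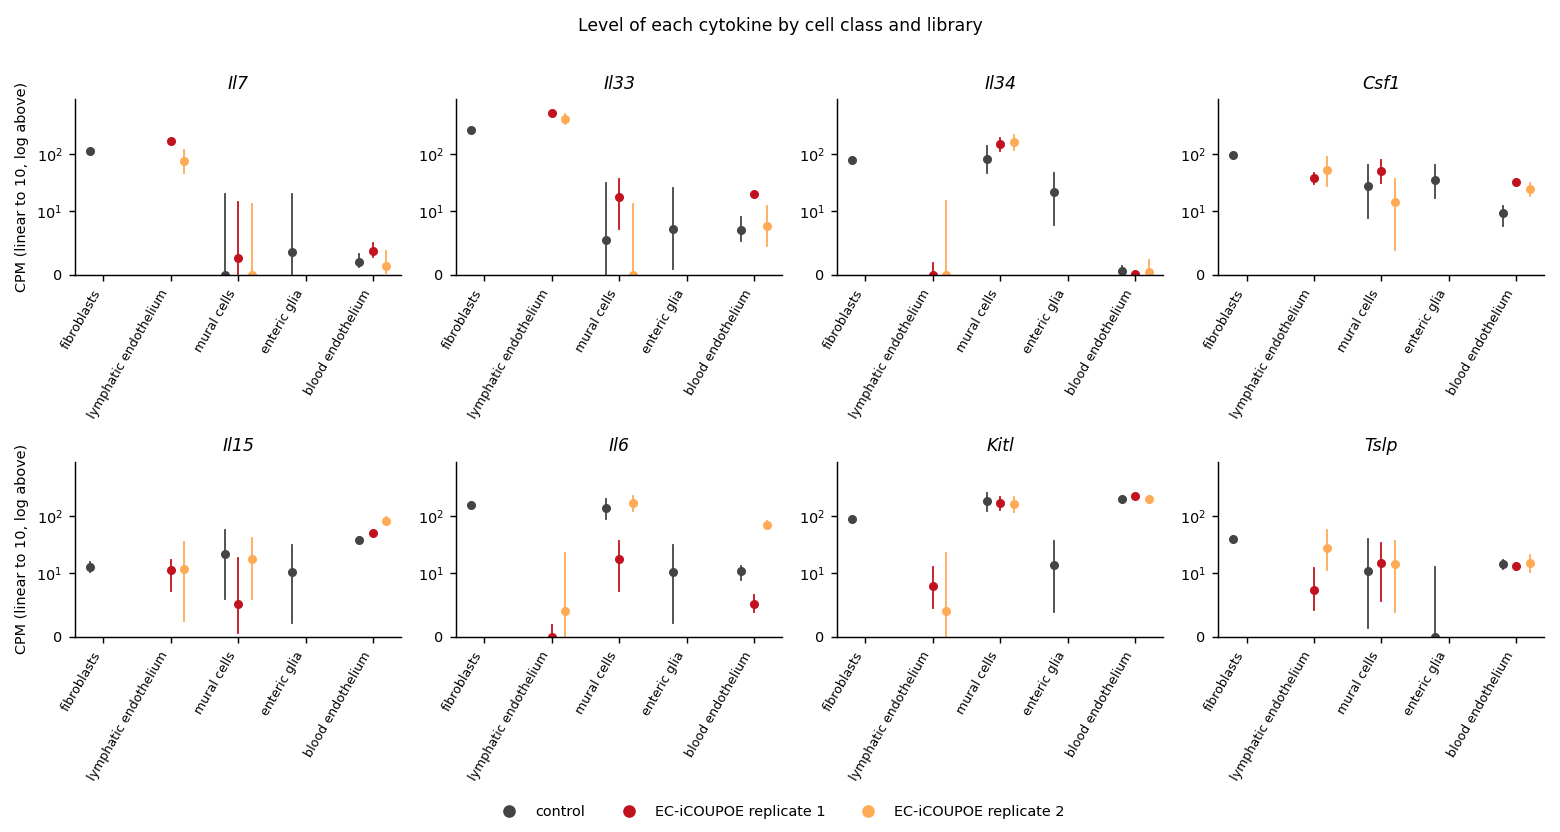
Level of each cytokine (CPM, axis linear to 10 and logarithmic above) in 5 cell classes, with 1 point per library (grey control, red EC-iCOUPOE replicate 1, orange replicate 2) and bars for the 95% exact Poisson interval. *Il7* and *Il33* stood highest in fibroblasts and lymphatic endothelium, *Il34* in fibroblasts and mural cells, *Il15* in blood endothelium, and *Kitl* in blood endothelium and mural cells, whereas *Kitl* reached 7.94 and 4.02 CPM in lymphatic endothelium.

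All 8 cytokines differed between fibroblasts and blood endothelium, where 28.0% of all genes tested were called. *Il7*, *Il33*, *Il34*, *Csf1*, *Il6* and *Tslp* were higher in fibroblasts, against 16.0% of all genes, and *Il15* and *Kitl* were lower there, against 12.0%. Between lymphatic and blood endothelium 5 of 8 were called (18.8% of all genes), *Il7* and *Il33* higher in lymphatic endothelium (8.91%) and *Il15*, *Il6* and *Kitl* lower (9.94%). Between mural cells and blood endothelium 3 of 8 were called (25.0% of all genes), *Il34* and *Il6* higher in mural cells (11.9%) and *Il15* lower (13.2%). Fibroblasts exceeded lymphatic endothelium in 5 of 8, *Il34*, *Csf1*, *Il6*, *Kitl* and *Tslp* (17.7% of all genes in either direction, 10.0% higher and 7.64% lower). That last count fell to 3 without EC-iCOUPOE replicate 1, where *Csf1* (adjusted p = 0.108) and *Tslp* (adjusted p = 0.738) were not called, and also to 3 without the library block.

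*Il7* encodes interleukin-7. It stood at 115 CPM (107 to 123) in control fibroblasts. Lymphatic endothelium held 166 CPM (149 to 185) in EC-iCOUPOE replicate 1 and 76.4 CPM (46.0 to 119) in replicate 2. Blood endothelium held 2.04 CPM in control, 3.72 in replicate 1 and 1.28 in replicate 2, and mural cells 0, 2.56 and 0 CPM, so the levels of the 2 sources did not overlap with those of any other class. The fitted difference from blood endothelium was 5.87 on the log2 scale for fibroblasts (SE 0.46, adjusted p = 1.40e-12) and 5.35 for lymphatic endothelium (SE 0.37, adjusted p = 1.14e-13). Fibroblasts and lymphatic endothelium did not differ beyond their error (log2 difference 0.52, SE 0.59, adjusted p = 0.672). In the control library 95.4% of all *Il7* UMIs lay in fibroblasts, and in EC-iCOUPOE replicate 1 lymphatic endothelium held 78.1%.

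Within the fibroblasts, *Il7* was concentrated in 2 of 9 clusters. The cluster with the markers of *Ccl19* reticular fibroblasts (379 cells, led by *Clu* and *Serpina1b*) held 372 CPM (341 to 405). An unnamed cluster led by *Igkc* and *Chodl* (387 cells) held 192 CPM (168 to 218). Its closest marker list was also that of *Ccl19* reticular fibroblasts, and *Jchain* and *Ighm* were among its leading genes. These 2 clusters made up 15.5% and 15.8% of fibroblasts and held 66.1% and 29.5% of fibroblast *Il7* UMIs. In the other 7 clusters *Il7* ranged from no UMI in 25 cells led by *Pla1a* and *Fxyd6* to 14.0 CPM in the *Pi16* adventitial cluster led by *Ackr4* and *Stc2*. Most fibroblasts, including the adventitial and the *Adamdec1* lamina propria clusters, thus held little *Il7* mRNA. After each cell was thinned to 1000 UMIs, which no cell used fell short of, 7.71% of fibroblasts and 13.6% of lymphatic cells of replicate 1 had an *Il7* UMI, against 0.204% of control blood endothelial cells, at median depths of 2744.5, 2339.5 and 2138 UMIs per cell before thinning (17.5%, 30.1% and 0.652% of cells unthinned).

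*Il33* encodes an alarmin kept in the nucleus of stromal and endothelial cells. It followed *Il7* in its sources, with 266 CPM (254 to 278) in control fibroblasts. Lymphatic endothelium held 519 CPM (488 to 552) in replicate 1 and 414 CPM (338 to 502) in replicate 2. The lymphatic levels lay above the fibroblast level, but the fitted difference, which sets both against the blood endothelium of their own library, was within its error (log2 difference of fibroblasts over lymphatic endothelium 0.38, SE 0.50, adjusted p = 0.723). In cells with at least 2000 UMIs *Il33* stood at 283 CPM in control fibroblasts and at 287 CPM in lymphatic endothelium of replicate 2. The lymphatic level of replicate 1 stayed within its counting interval there. Against blood endothelium *Il33* was 5.29 higher on the log2 scale in fibroblasts (SE 0.44, adjusted p = 3.68e-12) and 4.91 higher in lymphatic endothelium (SE 0.32, adjusted p = 2.96e-14). Thinned to 1000 UMIs, 42.7% of lymphatic cells of replicate 1 and 35.1% of those of replicate 2 had an *Il33* UMI, against 16.4% of control fibroblasts and 0.774% of control blood endothelial cells (65.5%, 54.1%, 33.0% and 1.79% unthinned).

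*Il33* was spread over more fibroblast clusters than *Il7*. The *Ccl19* reticular cluster held 750.4 CPM (706 to 796) and 57.7% of the fibroblast UMIs. The *Pi16* *Mfap5* adventitial cluster held 359.9 CPM (301 to 427) and a cluster led by *Timp3* and *Mfap5* held 266 CPM (203 to 343), although *Il7* was at 2.77 and 4.44 CPM in these. The lowest level was 57.6 CPM, in the cluster led by *Mmp10* and *Sertm1*. In blood endothelium *Il33* was found in postcapillary venules, at 34.3 CPM in control (25.3 to 45.5), 67.3 in replicate 1 (58.7 to 76.9) and 36.4 in replicate 2 (17.4 to 66.9). High endothelial cells, the specialised lymphocyte-recruiting venule cells named by *Glycam1* and *Chst4*, held 0.915 CPM in control and 2.47 in replicate 1, and capillary endothelium held 0, 2.30 and 2.91 CPM. An arterial cluster led by *Mgp* and *Gkn3* held 54.8 CPM in replicate 1 (9 UMIs in 51 cells) and 0 in control. Free fibroblast RNA in the control sample would carry 0.729 CPM of *Il33* into venule cells, as read from collagen and *Dcn* transcripts there. That value assumes free RNA with the mean composition of fibroblasts, and it covers control only. Lymphatic RNA in the EC-iCOUPOE libraries is not part of it. The part of free RNA in the venule *Il33* levels was not tested.

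**Figure D2:**
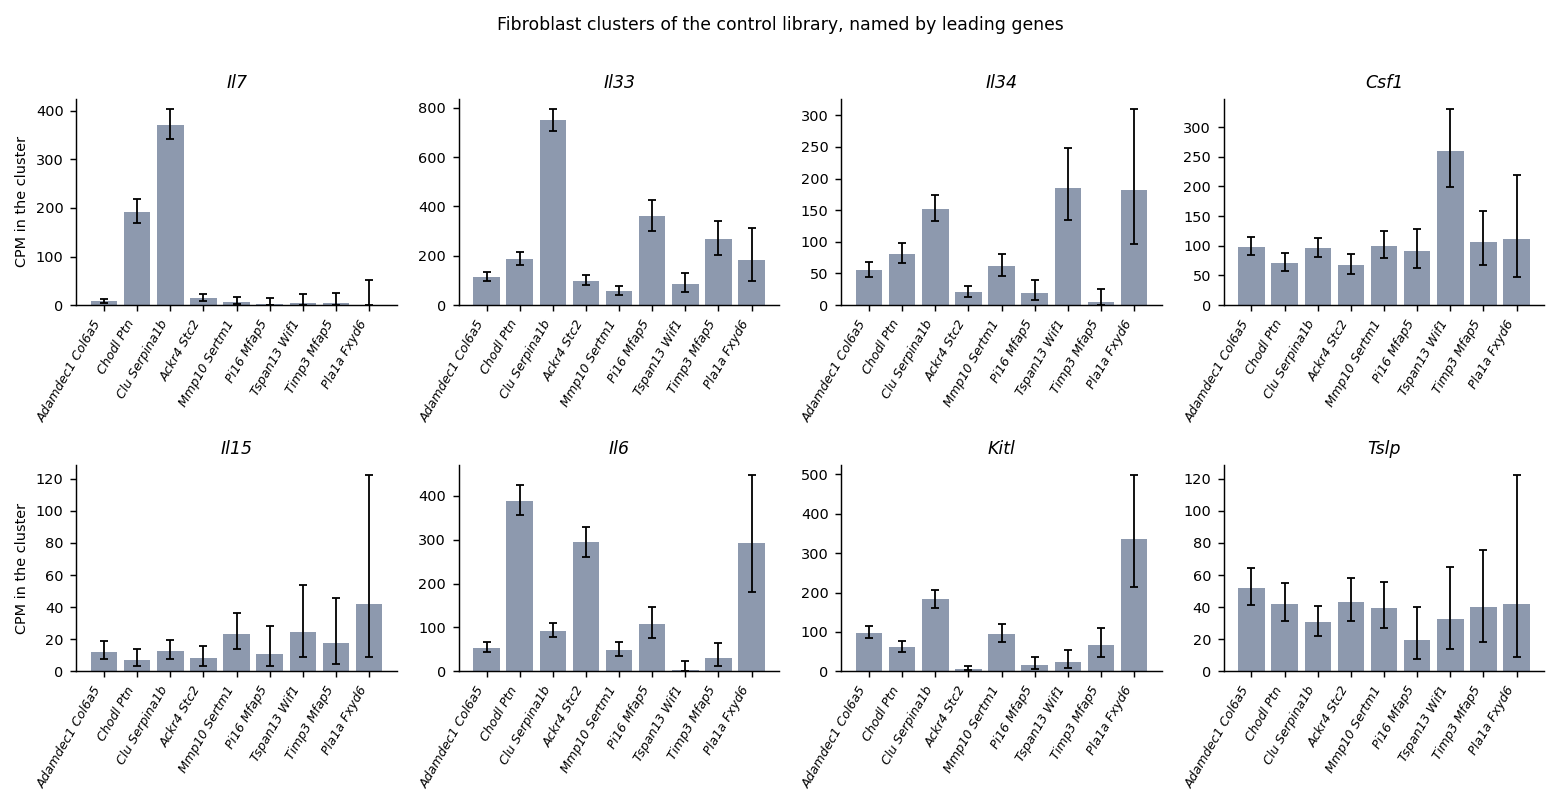
Level of each cytokine (CPM, linear axis from 0) in the 9 fibroblast clusters of the control library, each named by 2 of its leading genes (immunoglobulin genes skipped), with bars for the 95% exact Poisson interval. *Il7* was nearly limited to the *Clu* *Serpina1b* and *Chodl* *Ptn* clusters (372 and 192 CPM), *Il6* was high in the *Chodl* *Ptn* and *Ackr4* *Stc2* clusters (389.5 and 294 CPM), and *Il34* and *Csf1* were highest in the *Tspan13* *Wif1* cluster (185 and 259 CPM), while the wide bars of the *Pla1a* *Fxyd6* cluster come with its 25 cells.

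*Il34* and *Csf1* encode the ligands of the macrophage receptor CSF1R. *Il34* stood at 77.8 CPM (71.4 to 84.6) in control fibroblasts. Mural cells held 82.3 CPM (46.1 to 136) in control, 148 (113 to 192) in replicate 1 and 163 (119 to 218) in replicate 2. Enteric glia held 21.3 CPM (7.83 to 46.4). Mural levels in both EC-iCOUPOE libraries lay above the fibroblast interval, and the control mural interval spanned the fibroblast level. No *Il34* UMI was found in lymphatic endothelium, where 3 UMIs would make 1.49 CPM in replicate 1 and 12.1 CPM in replicate 2. Blood endothelium held 4, 1 and 1 UMIs (0.509, 0.0809 and 0.426 CPM). *Il34* was called higher than in blood endothelium both in fibroblasts (adjusted p = 1.34e-14) and in mural cells (adjusted p = 8.47e-17), and higher in fibroblasts than in lymphatic endothelium (adjusted p = 1.07e-08). Blood endothelial transcripts (*Flt1*, *Plvap*, *Emcn*, *Sox17*, *Pecam1*) in mural cells reached 25.4%, 11.9% and 2.90% of their level in blood endothelium of the same library. In control this would carry 0.129 CPM of *Il34*, a low value set in advance by the 0.509 CPM of blood endothelium. The 7 fibroblast markers summed to 1191 CPM in control mural cells and to 34573 CPM in control fibroblasts. The part of fibroblast RNA in the mural *Il34* level was not tested.

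Among fibroblasts *Il34* was highest in the *Bmp7* *Wif1* subepithelial cluster (185 CPM, 135 to 248), in the 25 cells led by *Pla1a* (182 CPM, 96.7 to 311) and in the *Ccl19* reticular cluster (153 CPM, 133 to 174). It was lowest in the clusters led by *Timp3* (4.44 CPM on 1 UMI), *Pi16* *Mfap5* (19.4) and *Ackr4* *Stc2* (20.02), the last 2 of which were named adventitial. The subepithelial and reticular clusters thus shared a high *Il34* level, although only the reticular one held *Il7*.

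*Csf1* was less restricted than *Il34*. Control fibroblasts held 94.8 CPM (87.7 to 102). Lymphatic endothelium held 37.7 and 52.3 CPM in replicates 1 and 2, mural cells 27.4, 51.2 and 14.5 CPM in control, replicate 1 and replicate 2, and enteric glia 35.5 CPM (17.0 to 65.4). Blood endothelium held 9.68, 32.9 and 24.3 CPM in the same order. Fibroblasts differed from blood endothelium by 3.23 on the log2 scale (SE 0.41, adjusted p = 5.03e-08) and from lymphatic endothelium by 2.92 (SE 0.52, adjusted p = 4.60e-05). The fitted difference of fibroblasts from lymphatic endothelium was larger than their levels alone show (94.8 against 37.7 and 52.3 CPM). It includes the library adjustment, and blood endothelium, which enters that adjustment, held less *Csf1* in control than in both EC-iCOUPOE libraries. Lymphatic endothelium and mural cells did not differ from blood endothelium beyond their error (log2 differences 0.32, SE 0.35, and 0.43, SE 0.38). All 9 fibroblast clusters held *Csf1*, from 68.1 CPM (*Ackr4* *Stc2*) to 259 CPM (199 to 331) in the *Bmp7* *Wif1* subepithelial cluster, whose interval overlapped only with that of the *Pla1a* cells. In lymphatic endothelium of replicate 1 a cluster of 64 cells led by *Nts* held 89.5 CPM (55.4 to 137), against 30.9 CPM (23.3 to 40.2) in the 762 cells led by *Mmrn1* and *Reln*, and *Kitl* also differed between them (34.1 and 4.49 CPM, on 8 UMIs each). Before cells with markers of 2 classes were left out, these clusters had 106 and 816 cells in replicate 1. With such cells kept, lymphatic *Csf1* and *Kitl* in replicate 1 were 47.8 and 17.2 CPM. The part of RNA from other classes in this difference was not tested.

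*Kitl*, which encodes KIT ligand (stem cell factor), had its highest class levels in blood endothelium and mural cells. Of its UMIs in control, 65.9% lay in blood endothelium, 27.3% in fibroblasts and 1.41% in mural cells. Blood endothelium held 197 CPM (187 to 207) in control, 224 (216 to 233) in replicate 1 and 199.6 (182 to 218) in replicate 2. Mural cells held 181, 169 and 163 CPM. These levels lay close together in all libraries, and the fitted difference of mural cells from blood endothelium was within its error (log2 difference -0.39, SE 0.22, adjusted p = 0.217). Mural cells also held blood endothelial transcripts, most of all in control, as given above for *Il34*. Their part in the mural *Kitl* level was not tested. With cells with markers of 2 classes kept, mural *Kitl* in replicate 1 was 234 CPM. Control fibroblasts held 90.7 CPM (83.8 to 98.0), lower than blood endothelium by a fitted log2 difference of -1.06 (SE 0.31, adjusted p = 0.00884), although this was not called without EC-iCOUPOE replicate 1 (adjusted p = 0.107) or in cells with at least 2000 UMIs (adjusted p = 0.0685). Lymphatic endothelium held only 7.94 and 4.02 CPM (16 UMIs and 1 UMI), a fitted log2 difference of -5.09 from blood endothelium (SE 0.37, adjusted p = 3.23e-13). The 5 blood endothelial transcripts named above were at 19.4% and 14.9% of their blood endothelial level in lymphatic cells, where *Kitl* was at 3.54% and 2.01%. How much of these 5 transcripts the lymphatic cells make themselves was not tested.

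*Kitl* UMIs were found in every blood endothelial cluster of at least 20 cells in every library. In control the level ranged from 119 CPM (108 to 132) in high endothelial cells to 369 CPM (303 to 445) in an unnamed cluster led by *Bmp2* and *Col8a1*. Capillary cells led by *Scgb3a1* and *Cxcl12* (331 CPM, 294 to 372) and arterial cells led by *Kcne3* and *Sema3g* (291 CPM, 253 to 334) stood near the top, and postcapillary venules held 179 CPM (157 to 202). The intervals of high endothelial cells and venules did not overlap with each other or with those of these 3 clusters. High endothelial cells of control had a median of 7364 UMIs per cell, against 1354 in the *Scgb3a1* *Cxcl12* capillary cells. Levels in CPM are relative to these totals, so clusters need not rank alike in UMIs per cell. In EC-iCOUPOE replicate 1 venules held 189 CPM and high endothelial cells 156 CPM, again below the *Bmp2* cluster at 329.7 CPM. The lowest level in that library was, however, in the arterial cluster led by *Mgp* and *Gkn3* (109.7 CPM, 65.0 to 173), whose interval spanned the level of high endothelial cells, and 24 capillary resident progenitor-like cells led by *Car4* and *Esm1* held 536 CPM (371 to 749). Among fibroblasts *Kitl* was high in the *Ccl19* reticular cluster (182 CPM, 161 to 206) and in the 25 *Pla1a* cells (335 CPM, 215 to 499), and lowest in the *Ackr4* *Stc2* adventitial cluster (7.01 CPM, 2.82 to 14.4). *Il6* had the opposite order in the reticular and *Ackr4* *Stc2* clusters (92.9 and 294 CPM). Thinned to 1000 UMIs, 21.3%, 19.5% and 20% of blood endothelial cells had a *Kitl* UMI, against 0.969% and 0% of lymphatic cells (42.0%, 48.8% and 35.1%, against 1.94% and 0.901%, unthinned).

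**Figure D3:**
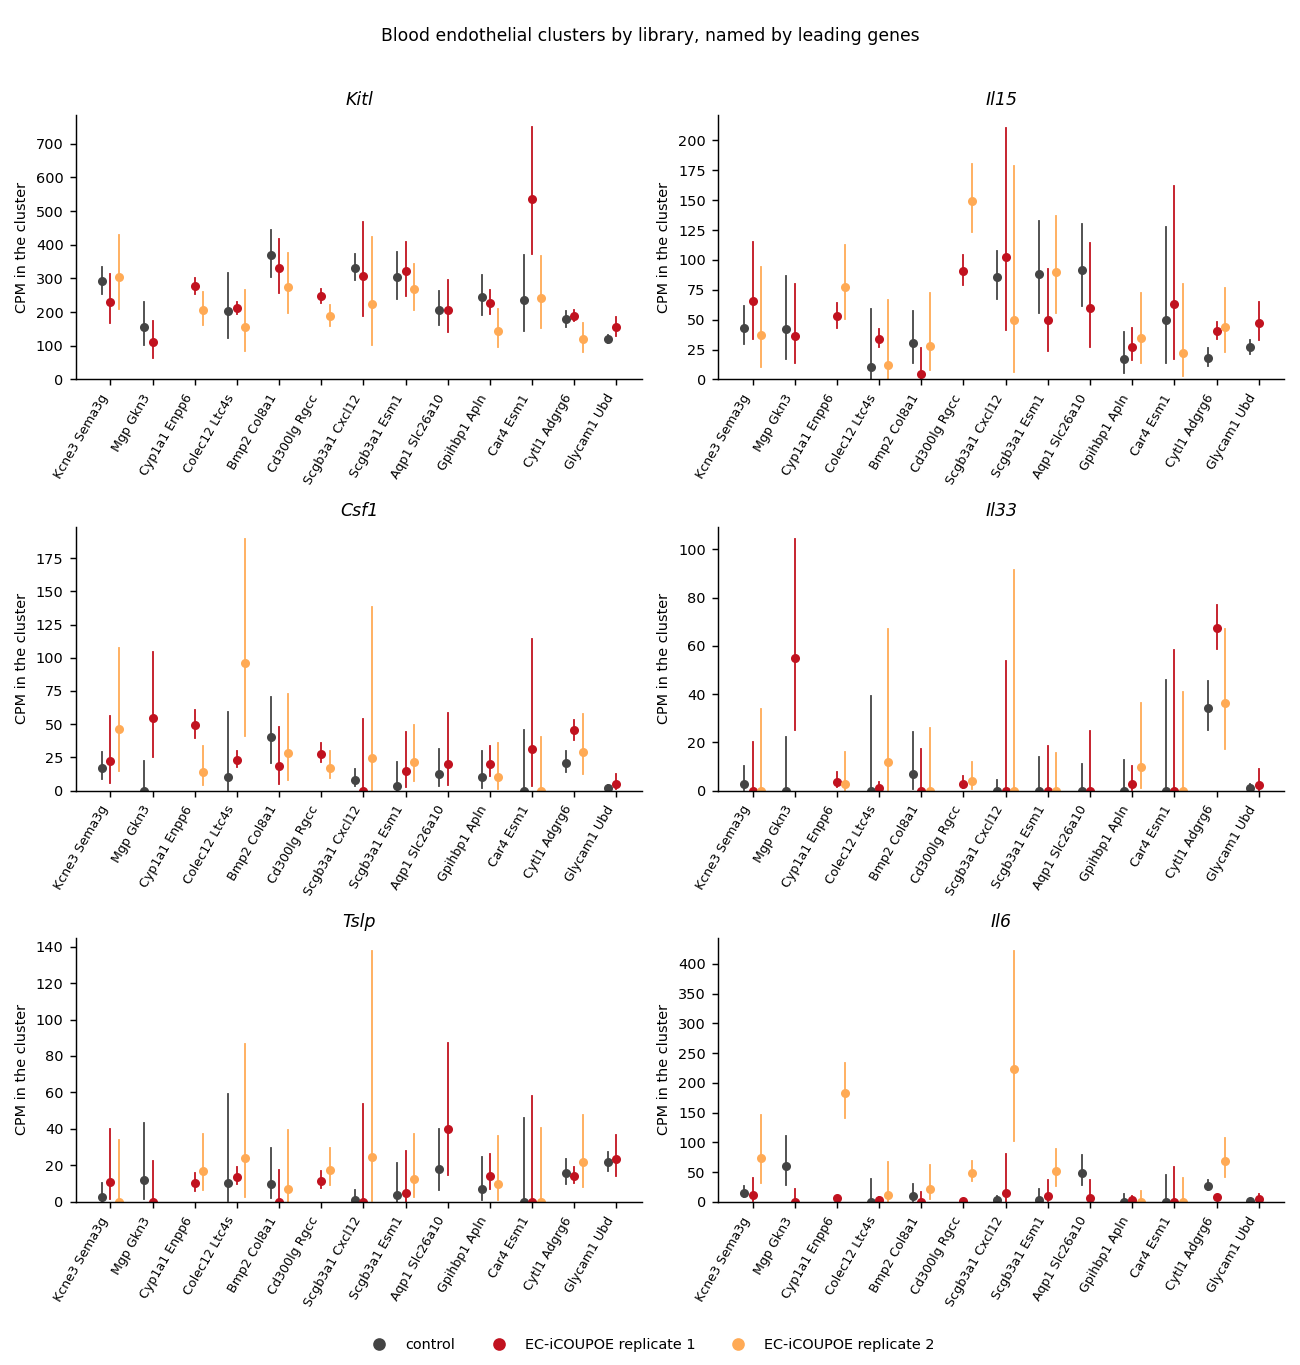
Level of 6 cytokines (CPM, linear axis from 0) in blood endothelial clusters with at least 20 cells in the library, each named by 2 leading genes (haemoglobin genes skipped), with 1 point per library (grey control, red EC-iCOUPOE replicate 1, orange replicate 2) and bars for the 95% exact Poisson interval. *Kitl* was held by every cluster, *Il15* was high in capillary clusters (*Scgb3a1* *Cxcl12* at 85.4 CPM in control, *Cd300lg* *Rgcc* at 90.8 and 149.6 CPM in EC-iCOUPOE), *Il33* stood out in the venule cluster led by *Cytl1*, and *Il6* was highest in EC-iCOUPOE replicate 2 in most clusters.

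*Il15* encodes interleukin-15, which sustains memory CD8 T cells, intraepithelial lymphocytes and NK cells. Its highest class level in each library was in blood endothelium, at 38.2 CPM (34.0 to 42.8) in control, 50.4 (46.5 to 54.5) in replicate 1 and 83.8 (72.5 to 96.4) in replicate 2. Control fibroblasts held 12.9 CPM, lymphatic endothelium 11.4 and 12.1 CPM, and mural cells 22.0, 5.12 and 18.1 CPM, on 2 to 5 UMIs for mural cells. All values outside blood endothelium lay below all 3 blood endothelial values. The fitted log2 difference from blood endothelium was -1.61 for fibroblasts (SE 0.39, adjusted p = 0.00146), -2.40 for lymphatic endothelium (SE 0.38, adjusted p = 5.31e-06) and -2.20 for mural cells (SE 0.42, adjusted p = 8.27e-05). With DESeq2 in place of edgeR the fibroblast difference was not called (adjusted p = 0.122).

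Within blood endothelium *Il15* was highest in capillary cells, at 85.4 CPM (71.3 to 102) in control, 86.2 (75.3 to 98.3) in replicate 1 and 131 (110 to 155) in replicate 2. Those of control lay mostly in the cluster led by *Scgb3a1* and *Cxcl12*, which held 85.4 CPM (67.1 to 107). Those of EC-iCOUPOE lay mostly in a cluster led by haemoglobin genes and then by *Cd300lg* and *Rgcc*, of which control had only 17 cells. This cluster held 90.8 CPM (78.6 to 104) of *Il15* in replicate 1 and 149.6 CPM (123 to 180) in replicate 2. Its leading genes were taken over all libraries together. Haemoglobin genes summed to 1195 CPM in control blood endothelium, against 68.9 and 42.6 CPM in replicates 1 and 2, so they were lower in EC-iCOUPOE. In control, postcapillary venules held 17.9 CPM (11.6 to 26.4), high endothelial cells 26.8 CPM (21.5 to 33.1) and the *Kcne3* *Sema3g* arterial cluster 43.4 CPM (29.5 to 61.6), all below the capillary interval. As for *Kitl*, this order is in CPM and not in UMIs per cell. *Il15ra*, which encodes the chain that presents IL-15 on the cell surface, stood at 16.8, 20.6 and 19.1 CPM in blood endothelium and at 12.3 CPM in fibroblasts, and was not called in any of the 4 contrasts.

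*Tslp* encodes thymic stromal lymphopoietin, a cytokine that signals through CRLF2 and the IL-7 receptor chain. Control fibroblasts held 40.2 CPM (35.7 to 45.2). Blood endothelium held 14.4, 13.2 and 15.3 CPM in control, replicate 1 and replicate 2, lymphatic endothelium 7.44 and 28.1 CPM, and mural cells 11.0, 15.3 and 14.5 CPM. The level of blood endothelium was close to equal in the 3 libraries and the fibroblast level lay above all others. The lymphatic levels, however, rest on only 15 and 7 UMIs and the mural levels on 2, 6 and 4 UMIs. Fibroblasts differed from blood endothelium by 1.58 on the log2 scale (SE 0.42, adjusted p = 0.00355, but 0.147 with DESeq2) and from lymphatic endothelium by 2.06 (SE 0.61, adjusted p = 0.0140, but 0.257 with DESeq2). The 9 fibroblast clusters ranged from 19.4 CPM (*Pi16* *Mfap5*, 7.79 to 39.9) to 52.0 CPM (*Adamdec1* lamina propria cells, 41.6 to 64.2), and these intervals did not overlap. In control blood endothelium *Tslp* was highest in high endothelial cells (21.6 CPM, 16.9 to 27.3), with 15.7 CPM (9.85 to 23.8) in venules, against 1.15 CPM (0.0292 to 6.43) in *Scgb3a1* *Cxcl12* capillaries and 2.80 CPM in the *Kcne3* arterial cluster. High endothelial cells of replicate 1 held 23.5 CPM (14.2 to 36.7). The highest level in that library was, however, 40.1 CPM, in 37 capillary cells led by *Aqp1* and *Slc26a10*. In replicate 2 it was 24.7 CPM on 1 UMI, in 24 *Scgb3a1* *Cxcl12* capillary cells. Fibroblast RNA of mean composition would carry 0.0915 CPM of *Tslp* into control high endothelial cells. The part of free RNA in their *Tslp* level was not tested.

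*Il6*, a cytokine that acts on B cells, plasma cells and T cells, differed more between the libraries in blood endothelium than any other of the 6 cytokines that reached 50 UMIs there. Control fibroblasts held 157 CPM (148 to 167). Mural cells held 137 CPM (88.8 to 203) in control, 17.9 (7.20 to 36.9) in replicate 1 and 170.1 (125 to 226) in replicate 2. Blood endothelium held 11.1 CPM (8.88 to 13.7), 5.10 (3.92 to 6.52) and 71.5 (61.1 to 83.2) in the same order. Replicate 2 was thus the highest and replicate 1 the lowest in both classes. Lymphatic endothelium held 0 UMIs in replicate 1, where 3 UMIs would make 1.49 CPM, and 1 UMI in replicate 2 (4.02 CPM, 0.102 to 22.4). *Il6* was called higher in fibroblasts than in blood endothelium (log2 difference 3.40, SE 0.41, adjusted p = 2.32e-08) and higher in mural cells (2.03, SE 0.34, adjusted p = 1.07e-05). It was lower in lymphatic than in blood endothelium (adjusted p = 0.000118) and higher in fibroblasts than in lymphatic endothelium (adjusted p = 3.22e-09). Without the library block 3 of these 4 calls were lost, with adjusted p = 0.168 for fibroblasts, 0.287 for mural cells and 0.144 for lymphatic endothelium, each against blood endothelium.

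Among fibroblasts *Il6* was highest in the cluster led by *Igkc* and *Chodl* (389.5 CPM, 356 to 426) and high in the *Ackr4* *Stc2* adventitial cluster (294 CPM, 262 to 330), which held 43.7% and 26.5% of fibroblast *Il6* UMIs. The *Bmp7* *Wif1* subepithelial cluster held 1 UMI (4.11 CPM, 0.104 to 22.9), although it was the highest in *Il34* and *Csf1*. In blood endothelium the order of the libraries was the same in 3 of the named subsets. Arterial cells held 23.9, 5.78 and 181 CPM in control, replicate 1 and replicate 2, capillary cells 13.3, 2.30 and 56.2 CPM, and postcapillary venules 27.2, 8.61 and 69.1 CPM. Capillary resident progenitor-like cells held 0, 2.64 and 0 CPM and high endothelial cells 1.52 and 4.95 CPM in control and replicate 1, so these subsets lacked the high level of replicate 2 or were too few there.

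*Il6* is also induced when tissue is dissociated, so a list of 16 genes of that response (*Fos*, *Jun*, *Egr1*, *Atf3*, *Zfp36*, *Socs3* and others) was summed beside it. The list stood at 14162, 16614 and 27927 CPM in blood endothelium, 24701 CPM in control fibroblasts, 31185, 29941 and 31559 CPM in mural cells, and 3249 and 5130 CPM in lymphatic endothelium. Control enteric glia stood at 19515 CPM, above blood endothelium of control and replicate 1, and held only 3 *Il6* UMIs. The class with the lowest sum, lymphatic endothelium, had the least *Il6*, and 15 of 16 list genes were lower there than in blood endothelium (9.94% of all genes). The median log2 difference of the list was -2.76, against -0.06 over all genes tested. Fibroblasts exceeded lymphatic endothelium in 15 of the 16 (10.0% of all genes). They exceeded blood endothelium in 7, with 1 lower (16.0% and 12.0% of all genes), and mural cells exceeded blood endothelium in 8, with 2 lower (11.9% and 13.2%). In blood endothelium of replicate 2 both *Il6* and the list sum were the highest of the 3 libraries, whereas replicate 1 had the lowest *Il6* and the middle list sum. The part of dissociation in the *Il6* levels was not tested.

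**Figure D4:**
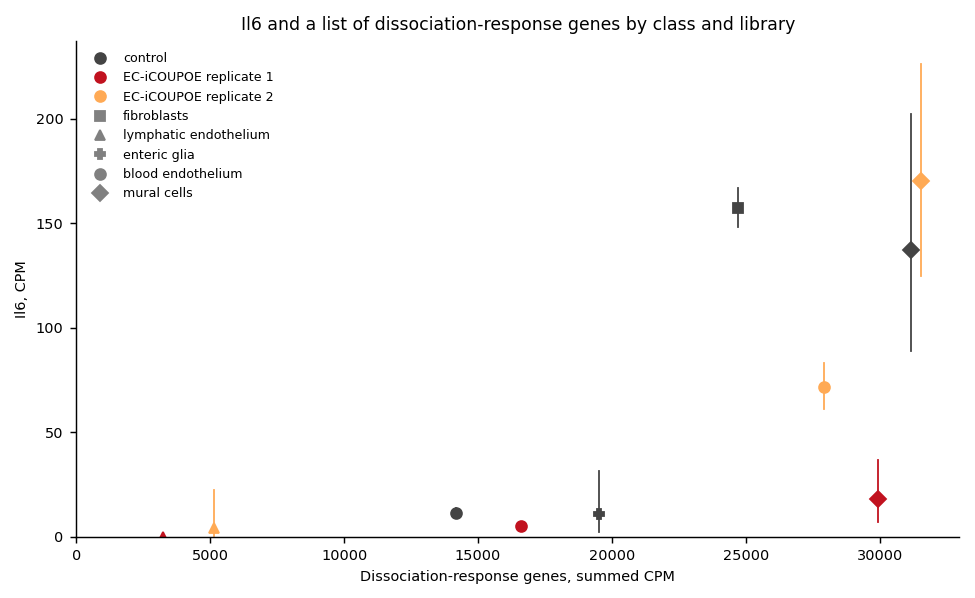
Level of *Il6* (CPM, vertical) against the summed level of 16 dissociation-response genes (CPM, horizontal), with 1 point per class and library (colour for library, shape for class) and bars for the 95% exact Poisson interval of *Il6*. Lymphatic endothelium sat at the lower left (0 and 4.02 CPM of *Il6*), fibroblasts and mural cells of control and replicate 2 sat at the upper right (157, 137 and 170.1 CPM), and mural cells of replicate 1 lay low (17.9 CPM) at a high list sum (29941 CPM).

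The next comparison was between EC-iCOUPOE and control blood endothelium. With 1 control library there is no test, and a gene was counted as different only if each EC-iCOUPOE library differed from control by a factor of 2 or more and in the same direction, among genes with at least 50 UMIs in a library. In blood endothelium 6 of the 8 cytokines could be read (*Il7* and *Il34* were too low) and 1, *Csf1*, met the rule, on the higher side, where 4.29% of all genes did (2.46% on the lower side). *Csf1* stood at 9.68 CPM (7.63 to 12.1) in control, 32.9 (29.7 to 36.2) in replicate 1 and 24.3 (18.4 to 31.4) in replicate 2. The ratios to control were 3.39 (exact 95% counting interval 2.65 to 4.40) and 2.51 (1.75 to 3.58). Both EC-iCOUPOE intervals lay above the control interval, and *Csf1* was also the only one of the 8 to meet a 1.5-fold rule. The rule was no longer met when 9 shared clusters were weighted equally, at 12.3, 22.7 and 30.3 CPM.

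The blood endothelial clusters were not equally filled in the 3 libraries, so *Csf1* was also read within clusters. It was higher in replicate 1 than in control in 11 of 13 clusters and lower in 2, and higher in replicate 2 in 6 of 9 and lower in 2. Clusters share a library and are not replicates, so this and later counts of clusters are descriptions, and they were not made for all genes. Some control values rest on few *Csf1* UMIs, such as 0 in the *Cd300lg* *Rgcc* capillary cluster and 1 in the cluster led by *Colec12* and *Ltc4s*. In capillary endothelium, where 4 of the 8 could be read, *Csf1* stood at 8.01, 25.7 and 19.4 CPM and met the rule (3.89% of genes on the higher side and 2.40% on the lower), with the capillary cells of control and of EC-iCOUPOE mostly in the different clusters named above. In the same capillary cells 7 of the 16 dissociation genes also met the rule on the higher side (*Atf3*, *Zfp36*, *Jund*, *Socs3*, *Fos*, *Hspa1b* and *Ier3*) and none on the lower, against 2 of 16 (*Jund* and *Hspa1b*) over all blood endothelium and 0 of 16 in postcapillary venules. The part of dissociation in the *Csf1* levels was not tested. In postcapillary venules *Csf1* stood at 20.7, 45.5 and 29.1 CPM, where the ratio of replicate 2 was 1.40 (0.555 to 3.15) and the rule was not met. In the *Bmp2* *Col8a1* cluster it was lower than in control in both (40.2, 18.8 and 28.3 CPM, on 4 to 12 UMIs).

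Because *Csf1* and *Il6* differed most between the libraries, the bases upstream of their RefSeq transcript starts are shown (build GRCm38.p6). Promoter sequences were matched for 4 of the 8 genes, *Csf1*, *Il6*, *Kitl* and *Il33*. Each window holds the 250 bases before the start, 5′ to 3′ on the gene's own strand, with capitals for matches, on either strand, to 2 searched motifs, TGANTCA (AP-1) and GGG and TTTCC with any 2 bases between them (NF-kappaB), of which the first was found in 6.75% and the second in 1.41% of 32817 windows of this length. The *Csf1* window lies at chr3:107760470-107760719 on the minus strand, next to the gene's span, and the *Il6* window at chr5:30012864-30013113 on the plus strand, likewise next to the gene's span.
Csf1: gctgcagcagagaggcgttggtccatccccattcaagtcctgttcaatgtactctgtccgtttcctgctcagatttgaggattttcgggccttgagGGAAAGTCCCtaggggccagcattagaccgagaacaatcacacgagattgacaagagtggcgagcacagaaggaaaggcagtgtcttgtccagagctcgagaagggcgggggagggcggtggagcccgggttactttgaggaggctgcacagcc
Il6: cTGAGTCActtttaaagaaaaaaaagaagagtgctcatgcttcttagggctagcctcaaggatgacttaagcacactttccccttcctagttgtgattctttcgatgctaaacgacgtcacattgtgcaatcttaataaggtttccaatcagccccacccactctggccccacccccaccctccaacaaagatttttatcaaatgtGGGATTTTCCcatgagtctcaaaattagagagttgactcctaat
The *Csf1* window held 1 match to the NF-kappaB motif, read on its other strand, and the *Il6* window held 1 match to each motif. None of the 5 windows of these 4 genes held GGTCA or GGTCG, spellings of the core of the nuclear receptor site that COUP-TFII can bind, which 46.6% of all windows hold on 1 strand or the other. A match in these letters is a description only.

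*Il15* and *Il33* passed 2-fold in 1 EC-iCOUPOE library only, and *Il6* passed 2-fold in both but in opposite directions. *Il15* reached a ratio of 2.19 (1.82 to 2.63) in replicate 2 and 1.32 (1.15 to 1.52) in replicate 1. With 9 shared clusters weighted equally *Il15* stood at 40.6, 53.2 and 51.8 CPM in control, replicate 1 and replicate 2. Its ratios in replicates 1 and 2 were 1.01 and 1.53 in capillary endothelium and 1.21 and 1.09 in arterial cells. In postcapillary venules, where 4 of the 8 could be read, it met the 2-fold rule, at 17.9 CPM in control, 40.6 in replicate 1 and 43.6 in replicate 2 (3.15% of genes on the higher side and 1.69% on the lower), with ratios of 2.27 (1.47 to 3.64) and 2.44 (1.12 to 5.05). *Il33* had a ratio of 2.86 (2.13 to 3.91) in replicate 1 and of 1.09 (0.604 to 1.89) in replicate 2. Within postcapillary venules its ratios were 1.96 (1.43 to 2.74) and 1.06 (0.478 to 2.12). *Il6* had a ratio of 6.45 (4.95 to 8.46) in replicate 2 and of 0.460 (0.327 to 0.644) in replicate 1, so that the EC-iCOUPOE libraries lay on opposite sides of control. It was higher in replicate 2 than in replicate 1 in 8 of 10 clusters.

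*Kitl* and *Tslp* differed least over all blood endothelium. *Kitl* had ratios of 1.14 (1.07 to 1.21) and 1.02 (0.914 to 1.13) there. In capillary endothelium both ratios were below 1, at 0.858 (0.760 to 0.970) in replicate 1 and 0.705 (0.596 to 0.831) in replicate 2. In the same order they lay on opposite sides of 1 in arterial cells (0.653 and 1.18), postcapillary venules (1.06 and 0.672) and capillary resident progenitor-like cells (1.04 and 0.719). Within clusters, however, *Kitl* was lower in replicate 2 than in control in 6 of 9 and lower than in replicate 1 in 9 of 10. *Tslp* had ratios of 0.916 (0.717 to 1.18) and 1.06 (0.710 to 1.56). In capillary endothelium *Tslp* stood at 5.34, 12.3 and 17.4 CPM on 8, 32 and 18 UMIs, too few to be counted under the rule. In mural cells 2 cytokines could be read. *Il34* had ratios of 1.80 (1.01 to 3.42) and 1.98 (1.08 to 3.82) and *Kitl* of 0.932 and 0.899, and neither met the rule (3.20% of genes on the higher side and 1.56% on the lower).

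The receptors were compared next, from a list of 13 receptor genes, 8 of which passed the filter on low counts. Between fibroblasts and blood endothelium 2 were higher and 3 lower in fibroblasts (16.0% and 12.0% of all genes tested), with a median log2 difference of -0.27 (0.03 over all genes tested). *Kit*, the receptor of KIT ligand, was a blood endothelial transcript, at 53.4 CPM in control, 22.5 in replicate 1 and 17.0 in replicate 2, against 0.283 CPM in fibroblasts, and it was lower than in blood endothelium in lymphatic endothelium (adjusted p = 0.000148) and mural cells (adjusted p = 0.000158) too. *Kit* and *Kitl* mRNA were therefore both held by blood endothelium. *Il2rg*, the chain shared by the IL-7 and IL-15 receptors, stood at 178, 90.8 and 91.5 CPM in blood endothelium and at 5.67 CPM in fibroblasts (log2 difference -4.92, adjusted p = 2.32e-10). *Il6st*, which encodes gp130, was lower in fibroblasts than in blood endothelium (-0.92, adjusted p = 0.0316).

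*Il6ra*, the IL-6 binding chain, had the opposite pattern, with 70.8 CPM in control fibroblasts, 49.4, 25.6 and 36.2 CPM in mural cells, and 3.95, 2.35 and 2.13 CPM in blood endothelium. Its log2 difference from blood endothelium was 4.28 in fibroblasts (adjusted p = 2.02e-10), 3.58 in mural cells (adjusted p = 5.16e-08) and 3.03 in lymphatic endothelium (adjusted p = 9.55e-07). Fibroblasts and mural cells thus held both *Il6* and *Il6ra*. *Il1rap*, the accessory chain of the IL-33 receptor, was higher in fibroblasts (2.94, adjusted p = 0.000698) and stood at 121 CPM in enteric glia. *Ptprz1*, a receptor of IL-34, stood at 256 CPM in enteric glia on 72 UMIs, and at 0.509 CPM in control blood endothelium. *Il1rl1*, *Csf1r*, *Il2rb* and *Il7r* were nearly lacking, with no UMI of *Il1rl1* in any of these classes, 7 of *Csf1r* in fibroblasts and none elsewhere, 1 of *Il2rb* and 15 of *Il7r*. *Crlf2*, the TSLP receptor chain, had 2570 UMIs and was lower in mural cells than in blood endothelium (log2 difference -1.78, adjusted p = 4.08e-05). *Sdc1*, also on the list, had 922 UMIs. Against blood endothelium it was higher in lymphatic endothelium (1.63, adjusted p = 0.000166) and lower in mural cells (-1.48, adjusted p = 0.0329).

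Other growth and survival factors, from a list of 20 of which 16 passed the filter, largely went with fibroblasts. In fibroblasts 13 were higher and 2 lower than in blood endothelium (16.0% and 12.0% of all genes tested), and the median log2 difference of the list was 4.01, against 0.03 over all genes tested. *Cxcl12*, a chemokine of lymphocytes and progenitors, reached 4677 CPM in control fibroblasts against 493 in control blood endothelium. *Tnfsf13b*, which encodes the B cell survival factor BAFF, stood at 236 CPM in fibroblasts, 0.637 CPM in control blood endothelium and 0 in lymphatic endothelium and mural cells. *Igf1* (304 CPM), *Bmp4* (171 CPM) and *Gas6* (444 CPM) were also called higher in fibroblasts, and *Tgfb1* was lower there (-2.49, adjusted p = 7.63e-07). Mural cells stood apart through the neurotrophin gene *Bdnf*, at 110 CPM in control, 148 in replicate 1 and 260.5 in replicate 2, against 0.127, 0.243 and 0 CPM in blood endothelium. Against blood endothelium 2 of the 16 factors were higher and 3 lower in mural cells, close to the 11.9% and 13.2% of all genes tested. In lymphatic endothelium 3 were higher and 3 lower (8.91% and 9.94% of all genes tested).

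For each cytokine the 3 genes with the most similar pattern were found by Pearson's r of log2(CPM + 10) over 50 sums of clusters and libraries and 9793 genes. These sums share libraries and depth, and r is a description. *Il34* was most like *Fat1* (r = 0.932), *Pdgfrb* (0.921), a receptor of pericytes and fibroblasts, and *Gpc6* (0.917). *Il33* was most like *Pdpn* (0.890), a surface protein of lymphatic endothelium and reticular fibroblasts, *Rspo3* (0.885) and *Abi3bp* (0.850). *Il7* was most like *Igkc* (0.813), *Trf* (0.778) and *Rspo3* (0.774), of which *Igkc*, an immunoglobulin chain, also led the second *Il7* cluster of fibroblasts. *Rspo3*, a Wnt pathway agonist, thus stood among the neighbours of both *Il7* and *Il33*.

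The other 5 had weaker neighbours. *Csf1* was most like *Cped1* (0.802), *Serping1* (0.752) and *Cd302* (0.740). *Kitl* was most like *Mndal* (0.785), *Ifi203* (0.774) and *Entpd1* (0.765). *Il6* was most like *Gm17056* (0.741), *Mbd1* (0.713) and *Tnfsf9* (0.708). *Tslp* was most like *C1ra* (0.737), *Lrrk1* (0.731) and *Slamf8* (0.703), and *Il15* was most like *Slc30a1* (0.709), *Scarb1* (0.699) and *Ncoa7* (0.689).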

How the data were processed

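Single-cell suspensions of Peyer's patches had been sorted for blood endothelium and run on the 10x Genomics Chromium platform by the authors. The authors deposited gene by cell matrices of raw UMI counts made against mm10. Cell Ranger 3.0.2 is named in the submitters' processing notes, while the deposited matrix header of EC-iCOUPOE replicate 1 names 3.1.0.

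Barcodes entered the analysis with 500 genes and 1000 UMIs or more and a mitochondrial share of 10% or less. Doublets were called at an assumed rate of 6% (132, 46 and 4 cells removed in control, replicate 1 and replicate 2). Libraries were integrated with Seurat 5.3.0 (2000 variable genes, 30 components, 20 neighbours, resolution 1), leaving the 8 cytokines and the listed genes out. Classes and clusters were named from markers. Cells with markers of 2 classes were left out of the sums, mostly mural cells (56, 110 and 2) and lymphatic cells (3, 96 and 16).

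UMI counts were summed per class and library (at least 10 cells) and tested with edgeR 4.0.16 (R 4.3.3), with 3 residual degrees of freedom. DESeq2 1.42.0, other scalings, filters, resolutions, depth limits and left-out libraries were tried as alternatives. Scripts were tested on simulated data. Intervals used SciPy 1.17.1. With 1 control library, genotype ratios have no test. Where the labels give no separate animals, p-values measure only the spread between these sums.

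The 8 genes and all lists (receptors, related factors, dissociation genes, markers) were chosen with earlier results of these data known. Named genes were the 8, list members called in a contrast with at least 50 UMIs, and the 3 genes most like each by Pearson's r among genes with at least 200 UMIs. List members that did not pass, such as *Il15ra*, *Ptprz1*, *Il1rl1*, *Csf1r*, *Il2rb* and *Il7r*, were named after their values were seen.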

Additional observations from a re-analysis of the deposited data

Results flagged for a closer look

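Cells of the cluster led by *Fabp6* and *Reg3b*, epithelial transcripts, entered no comparison (28 control cells, 161 of EC-iCOUPOE replicate 1 and 35 of replicate 2). Their cluster was left unnamed, and its closest marker list was that of blood endothelium. The genes *Stmn1* and *Ube2c* were also among its leading genes. What these cells are was not tested. They are listed because 3 of the cytokines were higher there in EC-iCOUPOE replicate 1 than in control, on more than 3 UMIs. This rule does not test a difference, and it was not run over all genes. *Il7*, *Il33*, *Il34*, *Il6* and *Tslp* were lower in replicate 1 than in control. The control levels of *Csf1* and *Il15* rest on only 4 and 6 UMIs. *Kitl* stood at 195 CPM in replicate 1, 128 in control and 117 in replicate 2. *Csf1* stood at 30.9, 16.0 and 0 CPM and *Il15* at 27.7, 24.0 and 11.3 CPM, in the same order.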

How the results depend on the processing

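Of 464 calls of a cytokine in a contrast under the alternatives, 13 did not keep their side of the threshold, and of 432 levels 16 moved beyond their counting interval. No call turned its direction. The count of 5 cytokines called between fibroblasts and lymphatic endothelium became 3 with no library block and, with libraries left out in turn, lay between 3 and 5. The count of 1 cytokine past 2-fold between EC-iCOUPOE and control blood endothelium became 3 without replicate 1 (*Csf1*, *Il6* and *Il15* higher) and 3 without replicate 2 (*Csf1* and *Il33* higher, *Il6* lower), since 1 EC-iCOUPOE library then decides alone. It became 0 with clusters weighted equally, an alternative chosen after seeing the data, as was keeping cells with markers of 2 classes, under which mural *Il6* in control was 67.4 CPM, mural *Il15* in replicate 1 was 20.6 CPM and lymphatic *Kitl* in replicate 1 was 17.2 CPM. Without the control library there was no fibroblast sum, and no contrast with fibroblasts was run.

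No paired analysis was possible because the labels pair no control library with an EC-iCOUPOE library. Fibroblasts and enteric glia were measured in control only and lymphatic endothelium in EC-iCOUPOE only, so they have no genotype comparison. The smaller UMI total of replicate 2 and the small number of mural cells (75, 112 and 88 in control, replicate 1 and replicate 2) widen their intervals.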

Other observations

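*Csf3*, which encodes the neutrophil growth factor G-CSF, was found in blood endothelium only, with 48 UMIs in control, 26 in EC-iCOUPOE replicate 1 and 23 in replicate 2 (fibroblasts against blood endothelium adjusted p = 0.000389, edgeR, no UMI in fibroblasts).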
